A study of Mus musculus with 18 samples.

Results

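The insulin-like growth factor (IGF) genes described here are the ligands Igf1 and Igf2, the receptor Igf1r and the binding proteins Igfbp2, Igfbp3, Igfbp4, Igfbp5, Igfbp6 and Igfbp7. They were chosen by symbol, and all 9 were found among the 24421 genes counted in both experiments of the study. All 9 passed the filter on low counts in both experiments. RNA was sequenced from bone marrow (BM) mesenchymal cells that had lost POT1a, a protein that binds the single-stranded end of telomeres, to ask what the loss does to these niche cells. There were 18 libraries in 6 groups, with n = 3 mice per group.

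In the first experiment, CD51+/PDGFRα+ MSCs from C57BL/6 mice aged 4 to 6 months were cultured and given vesicles that carry Cre recombinase (10 µL per well for 12 h). The donors were Pot1a flox/flox or Pot1a wt/wt and carried a tdTomato reporter behind a floxed stop, and tdTomato+ cells were sorted again 48 h later. Cells of both genotypes therefore received Cre. The groups were Pot1aΔ/Δ and Pot1awt/wt cells at week 1, and Pot1aΔ/Δ and Pot1awt/wt cells at week 4. In the second experiment, tdTomato+ cells were sorted directly from the BM of mice aged 2 weeks with NG2-cre and a floxed tdTomato reporter. NG2-cre acts in all NG2+ pericytes and not in MSCs alone. Within BM, the paper places the tdTomato signal only in PDGFRα+ CD51+ cells without CD45, TER119 and CD31. The groups of sorted cells are Pot1aΔ/Δ and Pot1awt/Δ by their titles, although the genotype field of the labels gives the same floxed genotype for all 6 libraries. Neither the labels nor the methods say which libraries share a mouse, litter or day.

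IGF1 and IGF2 are small secreted hormones that signal through the receptor tyrosine kinase encoded by Igf1r and promote growth and survival. In the circulation and in tissue they are held by the binding proteins, which limit or prolong their access to the receptor, and proteases release them again. IGFs are among the most abundant growth factors of bone matrix, where osteoblasts and stromal cells make both the ligands and several of the binding proteins.

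The libraries held 12807832 to 90717232 gene counts in culture and 28918757 to 49992698 in sorted cells. Pot1a itself did not check the labels. It averaged 34.3 ± 3.25 CPM (the count scaled to the total of its library) in Δ/Δ and 34.6 ± 1.58 CPM in wt/wt cells at week 1, 46.0 ± 2.58 CPM in Δ/Δ and 35.1 ± 3.79 CPM in wt/wt cells at week 4, and 27.8 ± 7.25 CPM in Δ/Δ and 29.8 ± 5.55 CPM in wt/Δ sorted cells (SD, n = 3 each). At week 4 it was higher in Δ/Δ cells (log2 fold change 0.39 ± 0.11, edgeR adjusted p = 0.0298), the direction against the label. The count is a sum over the whole gene, retained exons included, so loss of the deleted exons was not measured on its own. Why no comparison called a fall of Pot1a was not tested, and the groups stand here as labelled. The sort markers Pdgfra and Itgav (CD51) were read in every cultured library, at 72.2 to 258 CPM and 142 to 510 CPM. In sorted libraries they were at 81.2 to 201 CPM and 39.4 to 154 CPM. Cspg4 (NG2) was at 8.41 to 22.2 CPM in sorted and 6.47 to 107 CPM in cultured libraries, so its level does not set the sorted cells apart. Markers of blood and endothelial cells were near 0 in culture, with at most 2.47 CPM summed over 6 white blood cell genes and 6.68 CPM over 5 endothelial genes. In sorted cells the same sums were 739 to 1677 CPM and 883 to 1684 CPM, in libraries of cells that the study places in the fraction without CD45, TER119 and CD31. That gate would leave out white blood and endothelial cells, and the source of these reads was not tested.

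The upstream sequences of 4 members are shown because these genes carry the differences and levels described below. Igf2 and Igfbp2 had the largest positive log2 fold changes of Δ/Δ over wt/wt cells at week 4. Igfbp3 differed most between cultured and sorted cells, and Igfbp4 had the highest level. Each is the 250 bases before a RefSeq start site in GRCm38.p6, written 5′ to 3′ on the strand of the gene. The windows are chr7:142657497-142657746 (minus strand) for Igf2, at the most downstream of its 4 annotated start sites, chr1:72824230-72824479 (plus strand) for Igfbp2, at the more upstream of its 2, chr11:7213924-7214173 (minus strand) for Igfbp3 and chr11:99040994-99041243 (plus strand) for Igfbp4. Capitals mark matches on either strand to the core letters of a TATA box (TATAAA), of a GC box (GGGCGG) or of a CCAAT box, spelled as named, none of which overlap here.
Igf2: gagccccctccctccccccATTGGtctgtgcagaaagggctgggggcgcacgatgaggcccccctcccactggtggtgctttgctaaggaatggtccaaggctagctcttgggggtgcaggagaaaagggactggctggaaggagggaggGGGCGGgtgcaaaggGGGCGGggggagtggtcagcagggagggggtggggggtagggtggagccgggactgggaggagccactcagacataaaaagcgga
Igfbp2: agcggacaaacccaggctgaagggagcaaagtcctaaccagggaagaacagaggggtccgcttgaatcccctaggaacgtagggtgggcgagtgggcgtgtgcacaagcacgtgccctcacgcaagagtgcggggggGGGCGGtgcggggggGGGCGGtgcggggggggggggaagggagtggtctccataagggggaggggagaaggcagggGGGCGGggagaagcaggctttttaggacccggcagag
Igfbp3: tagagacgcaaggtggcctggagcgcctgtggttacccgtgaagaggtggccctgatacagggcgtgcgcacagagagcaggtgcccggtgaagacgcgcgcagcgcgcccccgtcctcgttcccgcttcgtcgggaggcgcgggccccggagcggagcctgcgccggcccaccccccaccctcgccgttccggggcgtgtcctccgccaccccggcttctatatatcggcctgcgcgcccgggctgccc
Igfbp4: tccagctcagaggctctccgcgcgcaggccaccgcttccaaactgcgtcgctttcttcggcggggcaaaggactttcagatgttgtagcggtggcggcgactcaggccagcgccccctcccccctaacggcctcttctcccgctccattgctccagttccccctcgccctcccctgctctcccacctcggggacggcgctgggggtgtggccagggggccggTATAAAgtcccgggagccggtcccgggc
Igf2 had 2 GC boxes and 1 CCAAT box, which is on the opposite strand and printed as ATTGG. Igfbp2 had 3 GC boxes, Igfbp4 had 1 TATA box ending 22 bases before the start, and the Igfbp3 window held none of these letters. The window before the other start site of Igfbp2 also held none, and those before the other 3 of Igf2 held 1 GC box in all. Among 32817 promoter windows of this length, 12.4% held TATAAA, 32.7% held GGGCGG and 33.8% held CCAAT. These matches describe the letters only, and which start sites the cells used was not measured.

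By the GENCODE M21 annotation of GRCm38, Igf2 (chr7:142650766-142666816, minus strand) and Igf1r (chr7:67952827-68233668, plus strand) lie on chromosome 7 and Igf1 on chromosome 10 (87858265 to 87937042, plus strand). Igfbp2 (72824503 to 72852474, plus strand) and Igfbp5 (72857932 to 72874884, minus strand) converge on chromosome 1, with 5457 bases between their ends. Igfbp3 (7206086 to 7213923, minus strand) and Igfbp4 (99041244 to 99054392, plus strand) are on chromosome 11, Igfbp6 is on chromosome 15 (102144362 to 102149511, plus strand) and Igfbp7 on chromosome 5 (77349240 to 77408041, minus strand). The library kit kept no strand. Genes on the opposite strand overlap Igf1 (Igf1os), Igf2 (Igf2os) and Igfbp7 (Gm34648 and 85 bases of Polr2b), and their reads cannot be told apart by strand. Gm49394 (16048 bases) and Mir483 (73 bases) overlap Igf2 on its own strand. These overlaps are of whole gene bodies, and overlap of exons was not measured.

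Levels of different genes were compared as CPM per kilobase of merged exons. Igfbp4, whose product binds both IGFs and is cut by the protease PAPP-A, had the highest mean in all 6 groups. It reached 1127 ± 282 CPM per kilobase in Δ/Δ and 903 ± 395 in wt/wt cells at week 4, and 936 ± 87.6 in Δ/Δ and 940 ± 638 in wt/Δ sorted cells (SD, n = 3 each). Igfbp7, which encodes a related secreted protein with low affinity for IGFs, was second in every group, and its libraries overlapped those of Igfbp4 in all groups except sorted Δ/Δ cells. Igfbp4 made up 33.6% to 51.0% of the summed per-kilobase level of the 6 binding proteins in the sorted libraries and 42.7% to 61.6% in the cultured libraries.

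Below this pair the order differed between the experiments. In culture Igfbp5 came next, at 26.4 ± 10.1 CPM per kilobase in Δ/Δ and 25.0 ± 13.5 in wt/wt cells at week 4, and every other member had at most 16.03 CPM per kilobase in any library. Its libraries lay apart from those of the gene below it except in Δ/Δ cells at week 4, where they overlapped with Igf2. The lowest mean was that of Igfbp3 in both genotypes at week 1, of Igfbp6 in Δ/Δ cells at week 4 and of Igfbp2 in wt/wt cells at week 4. In sorted cells Igfbp3 came next, at 304 ± 21.1 CPM per kilobase in Δ/Δ and 150 ± 83.0 in wt/Δ cells, followed by Igfbp5, Igf1, Igfbp2 and Igf2. Igf1r was the lowest or next to lowest there, at 0.546 ± 0.0905 CPM per kilobase in Δ/Δ and 0.554 ± 0.0897 in wt/Δ cells. Neighbours in this order that overlapped in sorted Δ/Δ cells were Igfbp5 and Igf1 alone, whereas in wt/Δ cells Igfbp4 and Igfbp7, Igfbp7 and Igfbp3, Igfbp3 and Igfbp5, Igf1 and Igfbp2, and Igfbp6 and Igf1r overlapped.

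**Figure D1:**
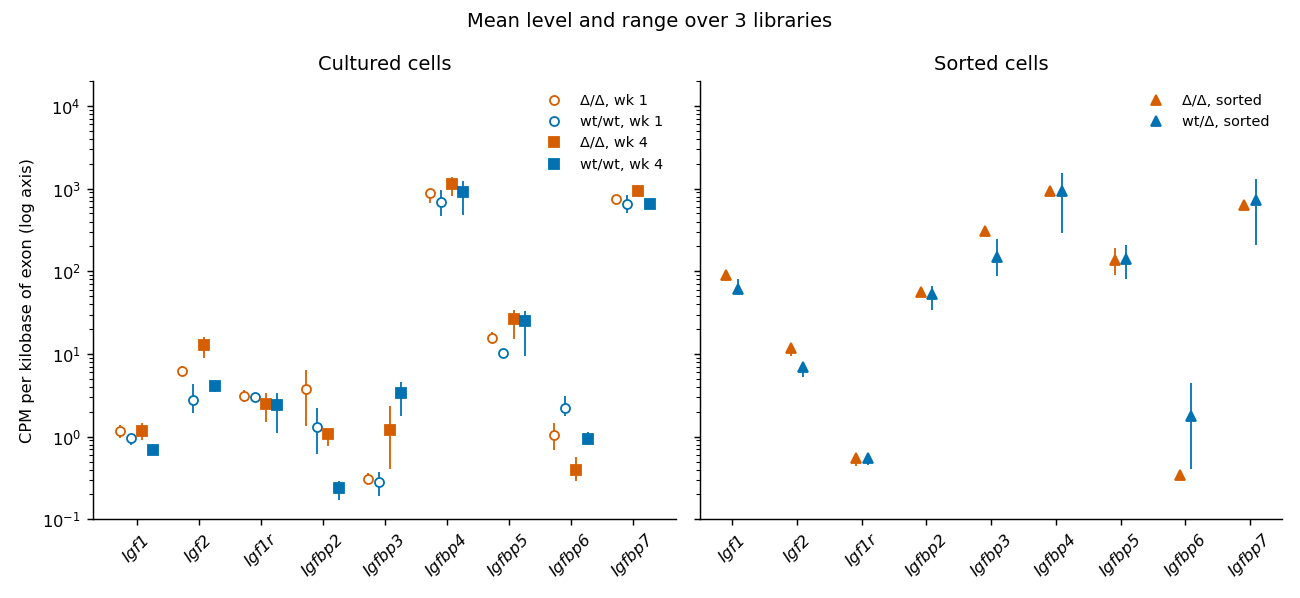
Level of each member in CPM per kilobase of exon (log axis) in cultured (left) and sorted cells (right). Markers are means of 3 libraries and lines run from the lowest to the highest library; Igfbp4 and Igfbp7 lie at the top in all 6 groups, while Igf1, Igfbp2 and Igfbp3 reach at least 34.4 in every sorted library and at most 6.44 in every cultured one.

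The experiments were counted in separate tables and differ in age, culture and sort, so their levels are set side by side with no test. Igfbp3, the main carrier of IGFs in blood, ranged over 277 to 1027 CPM in the 6 sorted libraries and over 0.606 to 14.4 CPM in the 12 cultured ones. Igf1 ranged over 517 to 1022 CPM in sorted and 5.97 to 14.4 CPM in cultured libraries, and Igfbp2 over 63.5 to 123 CPM in sorted and 0.312 to 11.9 CPM in cultured libraries. Igfbp5, which binds bone matrix, was at 479 to 1264 CPM in sorted and 56.4 to 206 CPM in cultured libraries. Igf1r went the other way, with 7.43 to 10.6 CPM in sorted and 18.6 to 61.5 CPM in cultured libraries. None of these 5 genes had overlapping ranges between sorted and cultured libraries, whereas those of Igf2, Igfbp4, Igfbp6 and Igfbp7 overlapped. These 5 of 9 members compare with 33.6% of the 12767 genes that passed the filter in both experiments. Per kilobase, Igf1 was 6.29 to 15.0 times Igf2 in each sorted library and 0.0563 to 0.527 times Igf2 in each cultured library, so the more abundant ligand transcript was Igf1 in sorted cells and Igf2 in culture. In bulk RNA, fewer cells of a type and less RNA per cell cannot be told apart.

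**Figure D2:**
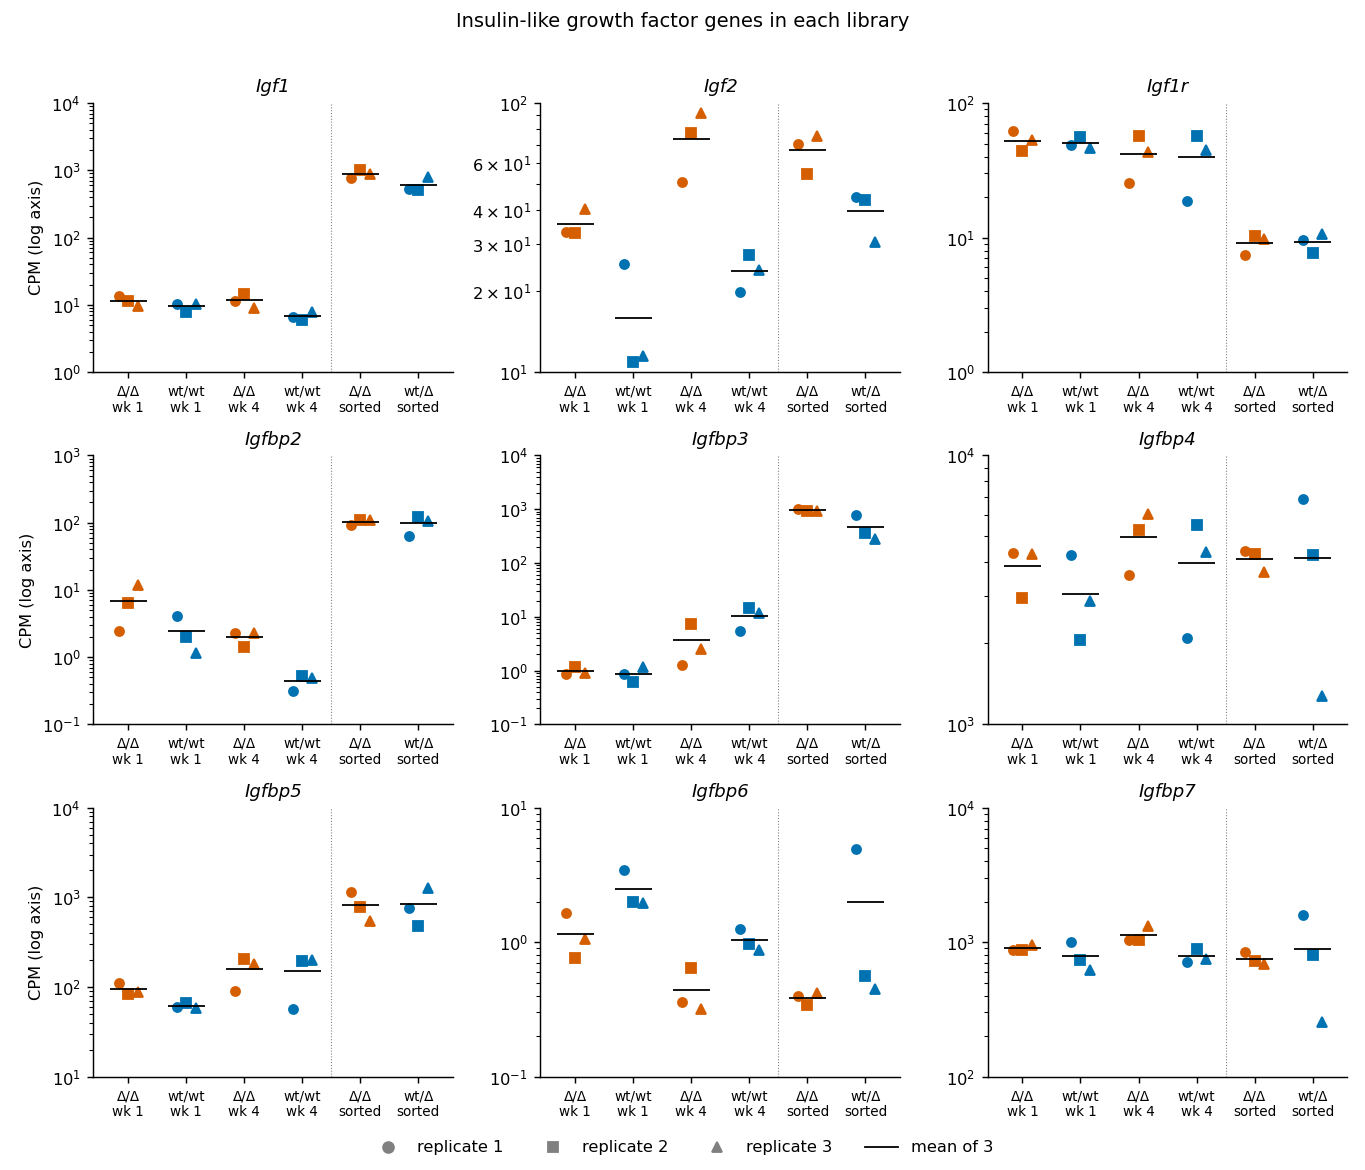
CPM of the 9 genes in each library (log axes, which differ between panels), for Δ/Δ (orange) and wt/wt or wt/Δ (blue) cells; symbols number the replicates and bars are means of 3. Igf2 in Δ/Δ cells lies above its comparison group in all 3 pairs of groups, and Igfbp6 lies below it. In sorted cells Igfbp6 had only 14 to 18 reads in Δ/Δ and 13 to 217 reads in wt/Δ libraries.

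The next comparison asked what differed between Δ/Δ and wt/wt cells at week 4. Tests were edgeR quasi-likelihood tests over all genes with Benjamini-Hochberg adjustment, and log2 fold changes are Δ/Δ over wt/wt after TMM scaling. Igf1, Igf2 and Igfbp2 were higher in Δ/Δ than in wt/wt cells at that week, and Igfbp6 was lower. These 4 of 9 members compare with 15.7% of the 13169 genes tested at week 4, and the 5 members whose groups did not overlap (these 4 and Igfbp7) with 26.8%. The median log2 fold change was 0.30 over the members and 0.00 over all genes.

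Igf2, the fetal growth factor of this family and an imprinted gene, had 51.1, 77.4 and 91.7 CPM in Δ/Δ cells, against 19.9, 27.3 and 24.1 CPM in wt/wt cells at week 4. All 3 Δ/Δ libraries were above all 3 wt/wt libraries, and the log2 fold change was 1.62 ± 0.29 (SE), or 3.06-fold, with an adjusted p of 0.00216. This call was kept under every alternative run for it, including each library left out in turn. Igf1, the ligand that growth hormone induces, had 11.4, 14.4 and 8.93 CPM in Δ/Δ cells, against 6.48, 5.97 and 7.75 CPM in wt/wt cells. Its libraries did not overlap either, and the log2 fold change was 0.76 ± 0.21 (adjusted p = 0.0256).

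Igf1r had 25.5, 56.8 and 43.1 CPM in Δ/Δ cells, against 18.6, 56.5 and 44.9 CPM in wt/wt cells at week 4. The groups overlapped almost fully, and the 95% interval of the log2 fold change was -0.73 to 0.81. The replicate 1 library was low in both genotypes.

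Among the binding proteins, Igfbp2 had 2.29, 1.42 and 2.29 CPM in Δ/Δ cells, against 0.312, 0.531 and 0.489 CPM in wt/wt cells at week 4. The groups did not overlap, and the log2 fold change was 2.11 ± 0.64 (adjusted p = 0.0429), but the wt/wt libraries held only 4 to 14 reads of this gene. Igfbp6, which binds IGF2 more tightly than IGF1, had 0.358, 0.638 and 0.320 CPM in Δ/Δ cells, against 1.25, 0.974 and 0.873 CPM in wt/wt cells. It was lower in all 3 Δ/Δ libraries, with a log2 fold change of -1.33 ± 0.38 (adjusted p = 0.0320) from 10 to 29 reads in Δ/Δ and 16 to 25 reads in wt/wt libraries.

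Igfbp3 had 1.29, 7.41 and 2.57 CPM in Δ/Δ cells, against 5.54, 14.4 and 11.7 CPM in wt/wt cells at week 4. Replicate 2 of Δ/Δ lay above replicate 1 of wt/wt, so the groups overlapped. The log2 fold change of -1.57 ± 0.51 missed the threshold (adjusted p = 0.0560). Igfbp7 had 1040, 1032 and 1328 CPM in Δ/Δ cells, against 713, 894 and 748 CPM in wt/wt cells, without overlap but with an adjusted p of 0.0513 (log2 fold change 0.52 ± 0.17). Igfbp4 and Igfbp5 overlapped between genotypes, with log2 fold changes of 0.30 ± 0.34 and 0.05 ± 0.40. Igfbp4 ranged over 3601 to 6031 CPM in Δ/Δ and 2090 to 5516 CPM in wt/wt cells, and Igfbp5 over 90.3 to 206 CPM in Δ/Δ and 56.4 to 198 CPM in wt/wt cells.

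**Figure D3:**
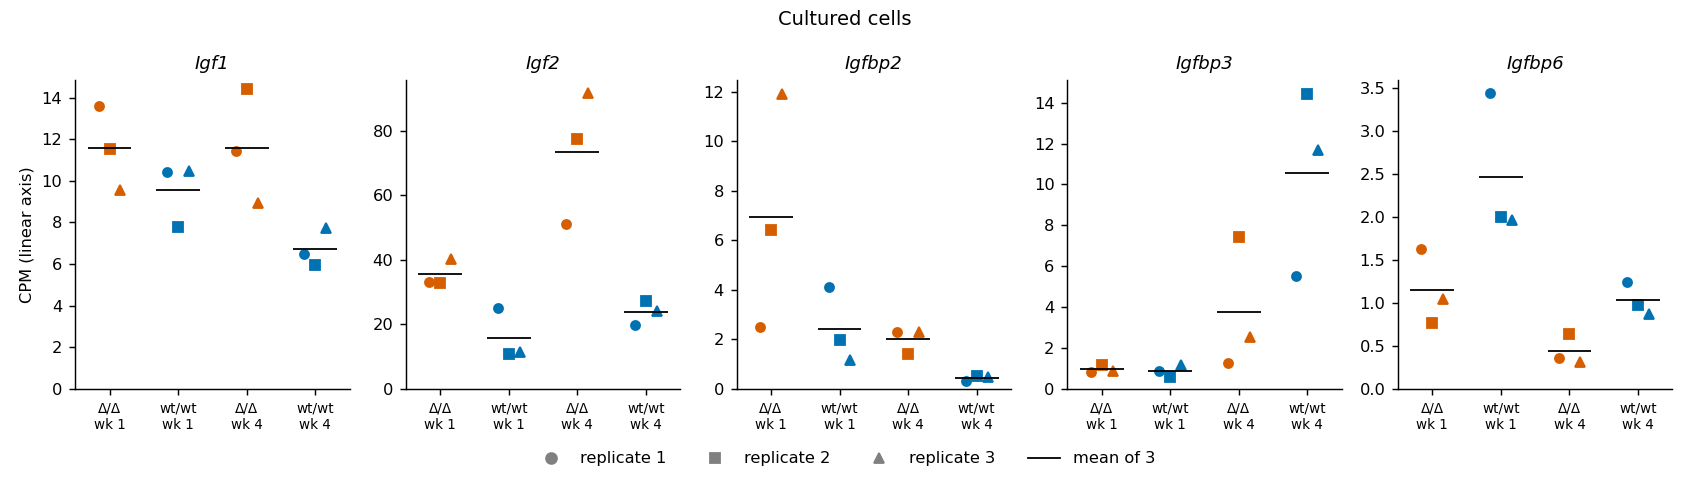
CPM of Igf1, Igf2, Igfbp2, Igfbp3 and Igfbp6 in each cultured library (linear axes from 0), with bars at the mean of 3. At week 4 the Δ/Δ libraries of Igf1, Igf2 and Igfbp2 are all above those of wt/wt and those of Igfbp6 all below, while Igfbp3 overlaps.

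Beside these differences, the summed level of 6 stromal markers was 13433 to 16967 CPM in Δ/Δ and 6909 to 8547 CPM in wt/wt cells at week 4. That of 5 osteoblast markers was 1884 to 2717 CPM in Δ/Δ and 7310 to 9967 CPM in wt/wt cells. The stromal sum is weighted to Cxcl12, which reached 16109 CPM in a cultured library. Within that list Pdgfra (log2 fold change 1.30), Cxcl12 (0.96) and Lepr (0.94) were called higher, and Nes (-1.37) lower. Cspg4 (-0.96) and Itgav (0.13) were not called. The part of these markers in the differences of the IGF genes was not tested. The calls of Igf1, Igfbp2 and Igfbp6 were each lost when single libraries were left out. In a fit of only the week 4 libraries, Igf1 (adjusted p = 0.0893) and Igfbp6 (0.0533) lost theirs, and with counts thinned to the lowest depth, an alternative chosen after the data were seen, Igf1 (0.112), Igfbp2 (0.0654) and Igfbp6 (0.124) did. Igf1 reached an adjusted p of 0.119 without Δ/Δ replicate 2 and was also lost without Δ/Δ replicate 1 (0.0588), wt/wt replicate 1 (0.0553) or wt/wt replicate 2 (0.0981). Igfbp2 lost its call without any single week 4 library (0.0564 to 0.114) or without replicate 2 of either genotype at week 1 (0.0582 for Δ/Δ and 0.0581 for wt/wt), and Igfbp6 without any except Δ/Δ replicate 2 (0.0580 to 0.164). Igfbp3 passed the test without Δ/Δ replicate 2 (log2 fold change -2.45, adjusted p = 0.00224) and without wt/wt replicate 1 (-1.89, adjusted p = 0.0167). Igfbp7 passed it without week 4 wt/wt replicate 2 (0.0426) or week 1 wt/wt replicate 1 (0.0297) or 3 (0.0390).

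At week 1, the same comparison gave no call among the members. None of 9 passed the test, against 1.02% of all genes by edgeR, while 3 members (Igf2, Igfbp2 and Igfbp6) were under an unadjusted p of 0.05, against 11.9% of all genes, and DESeq2 called 1, Igf2. Igf2 had 33.3, 32.8 and 40.4 CPM in Δ/Δ cells, against 25.1, 10.9 and 11.5 CPM in wt/wt cells. The groups did not overlap, and the log2 fold change was 1.18 ± 0.29 (adjusted p = 0.0825). Without wt/wt replicate 1, the highest of its group, it was 1.63 with an adjusted p of 0.00947.

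Igfbp2 at week 1 had 2.49, 6.42 and 11.9 CPM in Δ/Δ cells, against 4.12, 1.97 and 1.15 CPM in wt/wt cells. It varied more within the groups than any other cultured member at that time, and the log2 fold change of 1.55 ± 0.49 had an adjusted p of 0.184. Igfbp6 had 1.64, 0.768 and 1.05 CPM in Δ/Δ cells, against 3.45, 2.01 and 1.97 CPM in wt/wt cells, without overlap (log2 fold change -1.12 ± 0.32, adjusted p = 0.131). Igfbp5 had 111, 84.5 and 87.4 CPM in Δ/Δ cells, against 59.2, 66.5 and 57.7 CPM in wt/wt cells, also without overlap (0.62 ± 0.40, adjusted p = 0.640). These 3 members without overlap (Igf2, Igfbp5 and Igfbp6) compare with 21.8% of all genes. The other members overlapped, with log2 fold changes between 0.06 (Igf1r) and 0.35 (Igfbp4).

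The difference between the genotype effects at week 4 and week 1 was tested directly. It passed for 0 of 9 members by edgeR and by DESeq2, against 7.15% of all genes called by edgeR. None of the members was under an unadjusted p of 0.05, against 18.4% of all genes. It was 0.44 ± 0.41 for Igf2 (adjusted p = 0.686) and 0.50 ± 0.29 for Igf1 (adjusted p = 0.430) on the log2 scale. The largest in size was that of Igfbp3, at -1.71 ± 0.84 (adjusted p = 0.313), which became -2.59 with an adjusted p of 0.0263 without Δ/Δ replicate 2 of week 4. Thus the calls at week 4 and their absence at week 1 were not shown to differ for any member with all libraries in the fit.

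**Figure D4:**
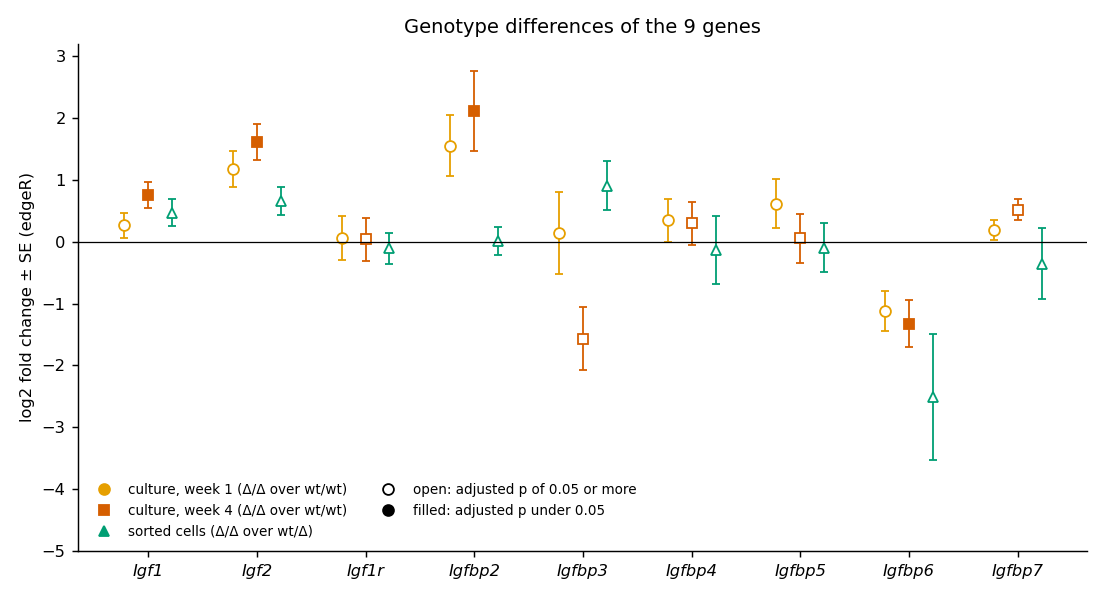
Log2 fold changes of the 9 genes with standard errors, for Δ/Δ over wt/wt in culture at week 1 (circles) and week 4 (squares) and for Δ/Δ over wt/Δ in sorted cells (triangles). Filled symbols, which are Igf1, Igf2, Igfbp2 and Igfbp6 at week 4, had an adjusted p under 0.05.

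Between week 4 and week 1, Igfbp3 rose and Igfbp2 and Igfbp6 fell in both genotypes. In Δ/Δ cells 4 of 9 members passed the test, against 35.1% of all genes, and in wt/wt cells 4 of 9, against 34.0% of all genes. Week 4 did not overlap with week 1 for 5 of 9 members in Δ/Δ cells (50.8% of all genes) and 4 of 9 in wt/wt cells (42.3% of all genes). These shares are close to those of all genes. The CPM of Igfbp3 were 1.29, 7.41 and 2.57 at week 4, against 0.849, 1.15 and 0.899 at week 1, in Δ/Δ cells (log2 fold change 1.89 ± 0.60, adjusted p = 0.0270). The values were 5.54, 14.4 and 11.7 at week 4, against 0.861, 0.606 and 1.15 at week 1, in wt/wt cells (3.60 ± 0.58, adjusted p = 4.55e-04). No week 4 library overlapped with week 1 in either genotype.

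Igfbp2 fell by 1.82 ± 0.50 on the log2 scale in Δ/Δ cells (adjusted p = 0.0131) and by 2.38 ± 0.64 in wt/wt cells (adjusted p = 0.0125). Igfbp6 fell by 1.51 ± 0.37 in Δ/Δ cells (adjusted p = 0.00731) and by 1.31 ± 0.33 in wt/wt cells (adjusted p = 0.00809). For both genes every week 4 library was below every week 1 library of its genotype. Igf2 rose in Δ/Δ cells, by 1.03 ± 0.29 with an adjusted p of 0.0152, and its change in wt/wt cells was 0.59 ± 0.29 with an adjusted p of 0.145. The change of Igf1 was -0.02 ± 0.20 in Δ/Δ cells (adjusted p = 0.954) and -0.51 ± 0.21 in wt/wt cells (adjusted p = 0.0758).

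Igfbp5 rose in wt/wt cells (1.30 ± 0.41, adjusted p = 0.0264), although its libraries overlapped at 56.4, 196 and 198 CPM at week 4, against 59.2, 66.5 and 57.7 CPM at week 1. Replicate 1 of week 4 was the low one, and both replicate 1 libraries of week 4 were the lowest of their group in Igf2, Igf1r, Igfbp3, Igfbp4 and Igfbp5. With the replicate number as a block within each genotype, Igfbp5 in wt/wt cells lost its call (1.09, adjusted p = 0.0716) and Igf1 in wt/wt cells gained one (-0.52, adjusted p = 0.0365, against 0.0758 without the block). Without both replicate 1 libraries of week 4, Igfbp5 in Δ/Δ cells had a log2 fold change of 1.03 (adjusted p = 1.36e-04), against 0.73 ± 0.40 (adjusted p = 0.179) with all libraries, an alternative chosen after the data were seen. It also passed without wt/wt replicate 1 of week 4 alone (adjusted p = 0.0245).

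Several time calls also rested on single libraries. In Δ/Δ cells, Igf2 lost its call without week 1 replicate 1 (adjusted p = 0.0547), week 1 replicate 2 (0.0554) or week 4 replicate 3 (0.0674), and Igfbp2 without week 1 replicate 3 (log2 fold change -1.15, 0.104). Igfbp3 in Δ/Δ cells lost it without any single week 1 library (0.0561 to 0.0898) or without week 4 replicate 2 (1.02, 0.0983), and Igfbp6 in Δ/Δ cells without week 4 replicate 3 (0.0550) or with thinned counts (0.104). In wt/wt cells, Igfbp2 lost its call without week 1 replicate 1 (-1.79, 0.0600), without which Igf2 in wt/wt cells gained one (1.04, 0.00777). Igfbp5 in wt/wt cells lost it without any single week 1 library or without week 4 replicate 2 or 3 (0.0546 to 0.0937). The calls of Igfbp3 and Igfbp6 in wt/wt cells held without each library in turn.

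In sorted cells no gene passed the edgeR test between Δ/Δ and wt/Δ mice (0 of 14605, or 0.00%), with 12.3% of all genes under an unadjusted p of 0.05 and 463 genes called by DESeq2. No member was called by either tool, and 2 of 9 members, Igf2 and Igfbp6, were under an unadjusted p of 0.05. Igf2 had 70.3, 54.4 and 75.7 CPM in Δ/Δ cells, against 44.8, 43.7 and 30.4 CPM in wt/Δ cells. All Δ/Δ libraries were above all wt/Δ libraries, with a log2 fold change of 0.66 ± 0.23 and an adjusted p of 0.327.

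Igfbp3 was the other member with higher values in every sorted Δ/Δ library, at 1027, 916 and 910 CPM, against 764, 364 and 277 CPM in wt/Δ cells (log2 fold change 0.91 ± 0.40, adjusted p = 0.414). Igfbp6 was lower in every Δ/Δ library, at 0.399, 0.342 and 0.418 CPM, against 4.96, 0.560 and 0.450 CPM in wt/Δ cells (-2.51 ± 1.02, adjusted p = 0.382). Its high value came from wt/Δ replicate 1 alone, without which the log2 fold change was -0.43. The libraries held 14 to 18 reads of Igfbp6 in Δ/Δ and 13 to 217 in wt/Δ cells, so these read counts overlapped. These 3 of 9 members without overlap compare with 20.3% of all genes. Igf1 had 765, 1022 and 872 CPM in Δ/Δ cells, against 524, 517 and 789 CPM in wt/Δ cells, with overlap and a log2 fold change of 0.47 ± 0.22 (adjusted p = 0.437).

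Igfbp4 and Igfbp7 varied more among the wt/Δ libraries than between the genotypes. Igfbp4 had 4394, 4318 and 3689 CPM in Δ/Δ cells, against 6900, 4280 and 1271 CPM in wt/Δ cells, a spread of 1.19-fold within Δ/Δ and 5.43-fold within wt/Δ. Igfbp7 had 849, 729 and 689 CPM in Δ/Δ cells, against 1590, 808 and 255 CPM in wt/Δ cells, a spread of 1.23-fold within Δ/Δ and 6.24-fold within wt/Δ. In wt/Δ cells Igf2, Igfbp3, Igfbp4, Igfbp6 and Igfbp7 were all highest in replicate 1 and lowest in replicate 3. Some marker sums ran in the same or the opposite order in wt/Δ replicates 1, 2 and 3. They were 28508, 12782 and 11254 CPM for stromal, 6319, 11851 and 15206 CPM for osteoblast and 739, 1190 and 1677 CPM for white blood cell markers. The sums of mural and erythroid markers also fell across these replicates, and that of endothelial markers rose. Those of cartilage (39.2, 223 and 85.7 CPM) and megakaryocyte markers (23.7, 1526 and 17.1 CPM) followed neither order. Igfbp2, Igfbp5 and Igf1r overlapped between genotypes, with log2 fold changes of 0.02, -0.09 and -0.10.

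The sorted libraries also differed in summed cell type markers and in Xist. Summed endothelial markers were 1516 to 1684 CPM in Δ/Δ and 883 to 1595 CPM in wt/Δ libraries. Summed megakaryocyte markers reached 826 CPM in Δ/Δ replicate 3 and 1526 CPM in wt/Δ replicate 2, against at most 24.9 CPM in the other 4. Without these 2 libraries, the log2 fold changes were 0.64 for Igf2, 0.79 for Igfbp3 and -3.00 for Igfbp6. Xist, which is read in female cells, was at 24.7 to 47.4 CPM in all 3 Δ/Δ libraries and at 0, 29.8 and 0.0346 CPM in wt/Δ libraries, so sex differed between the groups in part. The part of any of these in the values of the IGF genes was not tested.

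A list of 57 other genes of IGF signalling was set beside the members, of which 49 were tested. At week 4, 9 of the 49 were higher and 2 lower in Δ/Δ cells, against 15.7% of all genes called. At week 1 and in sorted cells edgeR called none, and 5 of 49 were under an unadjusted p of 0.05 in each, against 11.9% and 12.3% of all genes. The counts at week 1 and in sorted cells are close to those shares. Among regulators of binding protein cleavage, Stc1 and Stc2, whose products inhibit PAPP-A, moved in opposite directions at week 4. Stc1 had 459, 378 and 379 CPM in Δ/Δ cells, against 117, 82.2 and 97.4 CPM in wt/wt cells (log2 fold change 2.03 ± 0.18, adjusted p = 9.98e-06). Stc2 had 1.68, 1.42 and 1.47 CPM in Δ/Δ cells, against 3.75, 5.80 and 5.73 CPM in wt/wt cells (-1.77 ± 0.28, adjusted p = 8.21e-04). The other 6 genes of that list, Pappa included, were not called.

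Of the 8 genes of the growth hormone axis, which induces Igf1, 4 were higher and 1 lower at week 4, against the same 15.7%. The growth hormone receptor Ghr had 307, 335 and 243 CPM in Δ/Δ cells, against 141, 103 and 132 CPM in wt/wt cells (log2 fold change 1.23 ± 0.16, adjusted p = 1.58e-04). Socs2, a feedback inhibitor of growth hormone signalling, was higher (0.97 ± 0.12, adjusted p = 1.14e-04), as was Cish (0.77 ± 0.22, adjusted p = 0.0328), while the kinase gene Jak2 was lower (-0.95 ± 0.12, adjusted p = 2.00e-04). The adaptor gene Irs2 (1.65 ± 0.31, adjusted p = 0.00264) and Igf2bp1, whose product binds Igf2 RNA (1.91 ± 0.30, adjusted p = 6.98e-04), were higher. None of 17 genes of the PI3K, AKT and FOXO list passed the edgeR test at week 4, with 3 under an unadjusted p of 0.05, against 27.0% of all genes. In sorted cells none of these 17 passed either, with 4 under an unadjusted p of 0.05, against 12.3% of all genes.

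Over time, 16 of the 49 were higher and 6 lower at week 4 in Δ/Δ cells, and 13 higher and 8 lower in wt/wt cells, against 35.1% and 34.0% of all genes called. H19, the imprinted neighbour of Igf2, fell by 2.01 ± 0.29 on the log2 scale in Δ/Δ cells (adjusted p = 1.82e-04) and by 2.48 ± 0.31 in wt/wt cells (adjusted p = 5.87e-05), while Igf2 itself had positive log2 fold changes in both. Pappa2, which encodes a protease of Igfbp5, rose by 1.34 ± 0.45 in Δ/Δ cells (adjusted p = 0.0352) and by 2.21 ± 0.48 in wt/wt cells (adjusted p = 0.00337).

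Genes with the most similar pattern over the 6 groups were sought for the 3 members with the widest range, by the root mean square difference of centred mean log2 CPM. For Igfbp3 they were Lyz2 (1.02) and Serpina3g (1.15), for Igfbp2 Cdkn1c (0.600) and Cd36 (0.621), and for Igf1 Clca3a1 (0.236) and Cd36 (0.259), among 9291 or 9292 candidates. All 3 patterns are dominated by the step between cultured and sorted cells, and 6 groups from separate tables enter each value.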

How the data were processed

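RNA-seq libraries were prepared by the authors with a full-length cDNA kit that keeps no strand. Reads were aligned to mm10 with HISAT2 2.0.4 and counted per gene symbol with featureCounts 1.6.3, and the deposited values are raw counts, with no normalization. Replicates were not pooled. Groups were taken from the sample titles, and no library was left out.

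CPM values are counts divided by the library total. The test was the quasi-likelihood test of edgeR 4.0.16 (R 4.3.3) after the filterByExpr filter (minimum count 10) and TMM scaling. p-values were adjusted over all genes by Benjamini-Hochberg, and 0.05 was the limit for a call. One fit held the 12 cultured libraries in 4 groups and another the 6 sorted libraries. The SE of a fold change was its size divided by the root of F. The fit was tested on simulated data. The members and lists were chosen with earlier results of these data known. All 9 members are named, with up to 4 genes of each other list per comparison, of those with the smallest adjusted p. Depth was 12807832 to 90717232 counts per library, and in none of 18 replicate pairs did counts agree within sampling noise (chi-square per degree of freedom 10.3 to 359.69).

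Same-numbered libraries deviated together over time in wt/wt cells (correlations 0.152, 0.221 and 0.209, each over 0.1), so a fit with a block within each genotype was run. Its values are given only where the call of a member changed, and the other values over time are without a block. Between genotypes at week 4, the libraries numbered 1 deviated together most (0.635), with 0.227 for those numbered 2 and -0.083 for those numbered 3. These correlations rest on the data only, as no source says what a number shares. The alternatives were other scaling and filters, DESeq2 1.42.0, a replicate block, fits of only the libraries compared and each library left out. Leaving out both week 4 libraries numbered 1 or the 2 sorted libraries with high megakaryocyte markers, and random thinning of all counts to the depth of the shallowest library, were chosen after seeing the data. No protein sequences were used here.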

Additional observations from a re-analysis of the deposited data

Results flagged for a closer look

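No member met a condition for a closer look: none had a genotype effect that differed between weeks by the interaction test, and groups of 3 were not searched for outlying libraries. Among the other genes of IGF signalling, the genotype effect differed between week 4 and week 1 by that edgeR test for 6 of 49 genes, against 7.15% of all genes. It was larger at week 4 by 2.38 on the log2 scale for Stc1 (adjusted p = 1.12e-04), by 1.63 for Irs2 (adjusted p = 0.0369), by 1.26 for Ghr (adjusted p = 0.00348) and by 0.80 for Socs2 (adjusted p = 0.0105). The difference was -2.36 for Stc2 (adjusted p = 0.00267) and -1.06 for Jak2 (adjusted p = 0.00266). Akt1 had Δ/Δ libraries all below wt/wt in culture at week 4 (log2 fold change -0.23) and all above wt/Δ in sorted cells (0.19), and this difference between the experiments was not tested.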

How the results depend on the processing

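Igf2 at week 4 and Igfbp3 and Igfbp6 over time in wt/wt cells kept their direction and their call under all alternatives run, and Igfbp4 kept the highest mean per kilobase in 6 of 6 groups with TMM-scaled CPM or the longest transcript. The other calls of members were each lost under at least 1 alternative, and the causes of the shifts were not tested.

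At week 4, members called (4) became 2 in a fit of only the libraries compared (1267 genes, against 2062; Igf1 and Igfbp6 lost), 2 without both week 4 libraries numbered 1 (Igf1, Igfbp2 and Igfbp6 lost, Igfbp3 gained) and 1 with thinned counts (Igf1, Igfbp2 and Igfbp6 lost). At week 1, members called (0) became 1, Igf2, with no filter or with DESeq2 (453 genes, against 134), 1, Igfbp5, with only the libraries compared (237), and 2, both of these, without both week 4 libraries numbered 1 (289); at least 10 counts in every library gave 85 genes. In sorted cells DESeq2 called 463 genes and leaving out both megakaryocyte-rich libraries gave 2. With one library left out, genes called ranged over 49 to 257 at week 1 (0 to 1 members), 1551 to 2339 at week 4 (1 to 5), 647 to 1248 for the interaction (0 to 1), 0 to 4 in sorted cells (0 to 0), 3353 to 5572 for time in Δ/Δ (2 to 5) and 3614 to 4602 for time in wt/wt (3 to 4).

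With the replicate block, 1909 genes and 4 members were called at week 4. Igfbp2 lost its call (adjusted p = 0.0691) and Igfbp3 gained one (0.0153); the block changed no other genotype call of a member. By DESeq2, Igfbp3 (0.0166) and Igfbp7 (0.0308) were also called at week 4.

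Directions turned only where no call was made. Log2 fold changes crossed 0 for time in Δ/Δ of Igf1 (1.12e-04 with library size only, 0.0026 without both week 4 libraries numbered 1), for sorted Igfbp4 (0.21) and Igfbp7 (0.032) with the replicate block, without both week 4 libraries numbered 1 for week 4 Igf1r (-0.052) and Igfbp5 (-0.064) and time in wt/wt of Igf1r (0.026) and Igfbp7 (0.081), and with thinned counts for week 1 Igfbp3 (-0.11), time in wt/wt of Igfbp7 (0.010) and interaction Igfbp6 (0.19). With one library left out they ranged over, at week 1, -0.066 to 0.18 (Igf1r) and -0.050 to 0.39 (Igfbp3); at week 4, -0.31 to 0.37 (Igf1r), -0.022 to 0.62 (Igfbp4) and -0.35 to 0.33 (Igfbp5); over time, -0.21 to 0.15 (Igf1, Δ/Δ), -0.67 to 0.014 (Igf1r, wt/wt) and -0.15 to 0.16 (Igfbp7, wt/wt). For the interaction they ranged over -0.020 to 0.65 (Igf2), -0.37 to 0.32 (Igf1r), -0.038 to 1.23 (Igfbp2), -0.37 to 0.27 (Igfbp4) and -0.49 to 0.078 (Igfbp6); in sorted cells, over -0.23 to 0.020 (Igf1r), -0.19 to 0.22 (Igfbp2), -0.57 to 0.52 (Igfbp4), -0.42 to 0.26 (Igfbp5) and -0.81 to 0.45 (Igfbp7). Precision was limited where single libraries held as few as 4 reads of Igfbp2 or 10 of Igfbp6 at week 4, or 14 of Igfbp3 at week 1. The same holds for Igfbp6 in sorted cells, with as few as 13 reads.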
